A study of Mus musculus with 2 samples.

Results

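The promoters described here are CpG-rich promoters of the mouse genome at which the 2 replicates of a DNase-seq experiment had no peak in common. A gene was chosen by 2 criteria. Its 5' end had to hold at least 60 CpG dinucleotides within 1000 bp either side, and no shared peak could overlap the 1000 bp either side of any of its annotated starts, where a shared peak is a replicate 2 peak that overlaps a replicate 1 peak by at least 1 bp. Of 20807 autosomal protein-coding genes, 10907 were CpG-rich and 255 of these had no shared peak, or 2.34%. The other 10652 CpG-rich genes, with a shared peak, are the set they are compared with. Because the promoter peaks themselves chose the 255 genes, every value of those peaks given below is a description without a test.

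The study assayed accessible DNA in embryonic midbrain of B6NCrl mice, aged 14.5 days and pooled over both sexes, by DNase-seq, which sequences the positions cut by DNase I. There was 1 group of 2 biological replicates, with no treatment or genotype to compare. The replicates are separate biosamples filed under a single donor entry, and biological and technical parts of their difference cannot be told apart. Peaks are intervals of 150 bp with the authors' signal value, and hotspots are wider regions with a q value. Replicate 1 held 710176 peaks with a median value of 6 and replicate 2 held 267958 with a median value of 51, and 171429 replicate 2 peaks were shared. The read depth is unknown and the values are not on a common scale, so a value is read only against others of its own replicate. Shared promoter peaks were present at all 6 midbrain markers, all 4 neuronal and all 4 progenitor markers checked, and at 3 of 4 endothelial, 2 of 4 microglial, 1 of 4 erythroid and 2 of 4 meningeal markers. Over all autosomal genes, a shared promoter peak stood at 10652 of 10907 CpG-rich genes and 3980 of 9900 genes with fewer CpG. The marker counts are to be read against these shares and do not show which cells were present. In bulk tissue, a peak in few cells and a weakly accessible site in all cells cannot be told apart.

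CpG-rich promoters, most of them CpG islands, are usually free of DNA methylation and stay accessible in nearly all cell types, whether or not the gene is transcribed. Promoters of many germline genes are a known exception, since their CpG are methylated in somatic tissues after implantation. Promoters of developmental regulators such as the Hox genes are covered by the Polycomb complexes where the gene is silent. A CpG-rich promoter can also lie in sequence that occurs in several copies, where a short read cannot be placed at a single position.

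The sequences below show the main kinds of promoter in the set. All were read from RefSeq's GRCm38.p6 sequence (mm10), run 5' to 3' on the gene's strand, end at the base before the annotated 5' end of the gene unless stated, and touch no annotated exon. Germline genes that had no peak in either replicate and an E-box within the last 150 bases before the 5' end come first, with capitals marking the E-box CACGTG and the E2F6 motif TCCCGC on either strand. The E-box is the motif of MAX and MGA, and MGA and E2F6 are subunits of a Polycomb complex known from mouse embryonic stem cells to repress germline genes. They lie at chr3:102936101-102936250 (minus strand), chr3:40708705-40708854 (plus), chr5:135350045-135350194 (minus), chr6:49395454-49395603 (plus) and chr9:50561326-50561475 (minus).
Sycp1: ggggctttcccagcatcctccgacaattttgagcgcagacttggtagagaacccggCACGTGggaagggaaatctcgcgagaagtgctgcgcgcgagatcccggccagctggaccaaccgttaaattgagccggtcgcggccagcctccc
Slc25a31: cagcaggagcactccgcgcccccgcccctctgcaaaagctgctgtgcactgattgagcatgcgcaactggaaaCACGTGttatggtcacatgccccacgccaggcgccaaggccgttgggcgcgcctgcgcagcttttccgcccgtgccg
Fkbp6: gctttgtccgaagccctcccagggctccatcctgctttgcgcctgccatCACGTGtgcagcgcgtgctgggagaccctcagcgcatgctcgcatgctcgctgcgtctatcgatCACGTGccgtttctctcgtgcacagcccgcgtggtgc
Stk31: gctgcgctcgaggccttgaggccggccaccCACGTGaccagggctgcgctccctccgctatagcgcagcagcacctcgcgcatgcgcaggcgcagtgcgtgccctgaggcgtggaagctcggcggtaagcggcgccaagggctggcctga
Tex12: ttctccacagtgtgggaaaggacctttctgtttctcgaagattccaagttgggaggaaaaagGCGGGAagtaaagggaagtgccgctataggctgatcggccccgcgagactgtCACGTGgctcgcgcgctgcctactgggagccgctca

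Neighbouring copies of a gene form the next kind, here with capitals marking CpG. Srp54b and Srp54c, copies of the gene for the SRP54 subunit of the signal recognition particle, lie at chr12:55154954-55155103 and chr12:55230018-55230167 (both plus strand), and their 150 bases were identical at 150 positions. Over the window of 2001 bases around the 5' ends the pair was identical at 1998 positions. The histone H2B genes Hist1h2bq and Hist1h2br lie at chr13:21810198-21810347 (minus) and chr13:21833593-21833742 (plus). Their 5' ends are annotated 2 bases apart within the copied sequence, and once shifted by that amount the stretches were identical at 148 of 148 positions and the windows at 1999 of 1999.
Srp54b: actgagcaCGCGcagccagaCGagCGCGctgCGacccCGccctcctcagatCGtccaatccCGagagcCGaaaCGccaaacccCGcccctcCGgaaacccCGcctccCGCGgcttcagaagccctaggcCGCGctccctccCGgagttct
Srp54c: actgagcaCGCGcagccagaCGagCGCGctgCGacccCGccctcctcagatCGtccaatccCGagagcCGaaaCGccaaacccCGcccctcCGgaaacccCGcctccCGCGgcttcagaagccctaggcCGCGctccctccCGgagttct
Hist1h2bq: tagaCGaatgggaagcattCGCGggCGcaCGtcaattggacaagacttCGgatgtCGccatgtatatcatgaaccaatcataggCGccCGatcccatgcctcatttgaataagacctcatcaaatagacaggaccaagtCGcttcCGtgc
Hist1h2br: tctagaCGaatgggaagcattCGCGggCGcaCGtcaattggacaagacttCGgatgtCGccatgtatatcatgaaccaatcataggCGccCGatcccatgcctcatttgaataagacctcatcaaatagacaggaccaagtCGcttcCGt

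Promoters of other genes in unique sequence form the remaining kind, again with capitals at CpG. The germline promoters above also lie in largely unique sequence. Hoxd12 (chr2:74674863-74675012, plus) had no peak in either replicate, and Dio3 (chr12:110278918-110279067, plus) had the most CpG of the set.
Hoxd12: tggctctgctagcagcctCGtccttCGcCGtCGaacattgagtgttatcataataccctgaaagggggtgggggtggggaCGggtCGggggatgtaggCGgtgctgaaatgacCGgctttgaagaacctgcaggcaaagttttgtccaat
Dio3: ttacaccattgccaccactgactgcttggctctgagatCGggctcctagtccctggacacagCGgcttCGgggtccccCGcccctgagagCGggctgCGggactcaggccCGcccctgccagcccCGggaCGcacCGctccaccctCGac

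The missing shared peak had 4 forms. In 109 genes, or 0.999% of the CpG-rich genes and 42.7% of the set, no peak of either replicate overlapped the promoter windows, and no hotspot did either. In 23 genes there was a peak in replicate 1 alone and in 74 genes a peak in replicate 2 alone. In the remaining 49 genes each replicate had a peak, but the peaks did not overlap. Replicate 1 peaks that stood alone were centred a median of 547 bp from the 5' end and replicate 2 peaks that stood alone a median of 247.5 bp. A hotspot of the other replicate overlapped the windows of 2 of the 23 genes and 1 of the 74. Among the 49 genes both replicates had a hotspot in 47. In all, replicate 1 had no peak at 183 of the CpG-rich genes and replicate 2 at 132, although replicate 1 held the longer list of peaks.

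Where a peak was present it was mostly weak for a CpG-rich promoter. In each replicate 1 member, G3bp1, reached the lower quartile of the genes with a shared peak. The strongest peak had values of 3 to 18 (median 8) in the 23 genes with a replicate 1 peak alone, and 22 to 92 (median 56) in the 74 genes with a replicate 2 peak alone. The 49 genes with peaks in each replicate had values of 5 to 130 (median 14) in replicate 1 and 25 to 149 (median 70) in replicate 2. CpG-rich genes with a shared peak had medians of 100 in replicate 1 (quartiles 73 and 116) and 140 in replicate 2 (quartiles 130 and 145). Within their own replicates the single-replicate peaks stood at median percentiles of 65.2 in replicate 1 and 55.8 in replicate 2, near the middle of all peaks genome-wide. A share of 5.05%, or 538 of the 10652 genes with a shared peak, had a replicate 2 value of 92 or less. A hotspot at the cap of the q value (−log10 q of 100) overlapped 10.6% of the set in replicate 1 and 23.5% in replicate 2, against 93.98% and 99.2% of the genes with a shared peak.

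**Figure D1:**
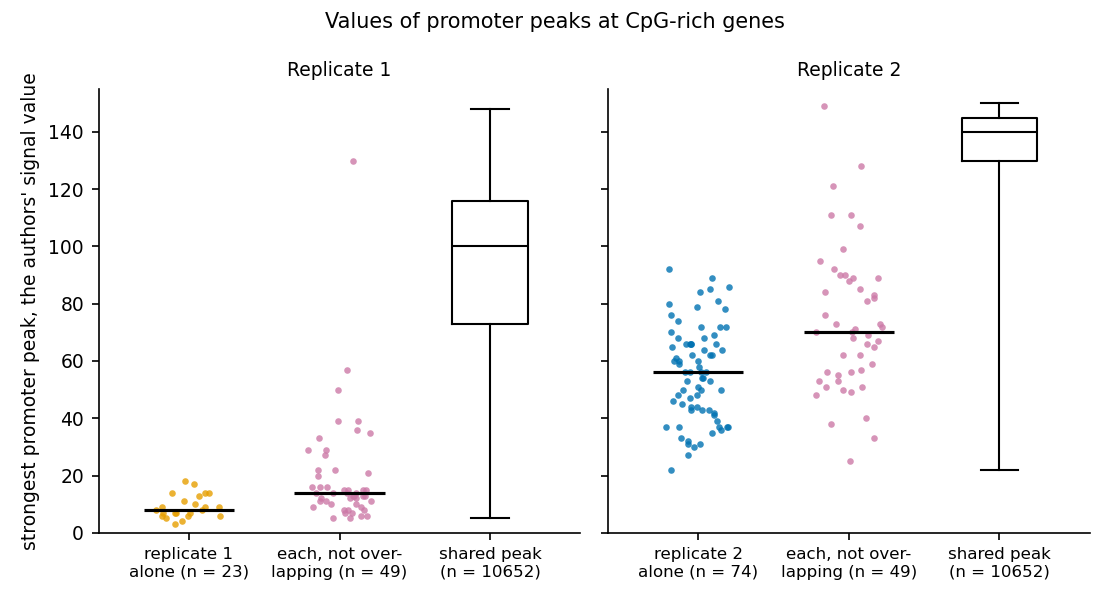
Authors' signal value of the strongest promoter peak (vertical axis, at most 150) in replicate 1 (left) and replicate 2 (right), for CpG-rich genes without a shared peak (each point a gene, line at the median) and with one (box at the quartiles, line at the median, whiskers at the lowest and highest). The single-replicate peaks lie at 18 or below in replicate 1 and 92 or below in replicate 2, and G3bp1 stands apart at 130 and 149.

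The peaks that did not overlap were mostly close neighbours. The gap between the nearest peaks of the 2 replicates ran from 10 to 30850 bp with a median of 90 bp, and it was 100 bp or less in 28 of the 49 genes and over 500 bp in 15. The widest gap was at Abcc8, the sulphonylurea receptor subunit of potassium channels, where the strongest peaks were centred 72783 bp after the 5' end in replicate 1 and 83 bp after it in replicate 2, at different annotated starts. G3bp1, which encodes a protein of stress granules, had the strongest peaks of all: values of 130 in replicate 1 and 149 in replicate 2, centred at −275 and −115 bp from its 5' end on chromosome 11, with 10 bp between them. Next by mean percentile came Tmem253 with 57 in replicate 1 and 128 in replicate 2, Csf1 with 50 and 121 (pairs of values give replicate 1, then replicate 2), and Ppp1r3d and Fam217b, which share a pair of peaks, with 39 and 111. Csf1 encodes the growth factor of macrophages and microglia. The stretch between the G3bp1 peaks, with 70 bases of each peak, lies at chr11:55469416-55469565 (plus strand) and ends at −120 bp from the 5' end, and capitals mark the 10 bases that neither peak covers.
G3bp1: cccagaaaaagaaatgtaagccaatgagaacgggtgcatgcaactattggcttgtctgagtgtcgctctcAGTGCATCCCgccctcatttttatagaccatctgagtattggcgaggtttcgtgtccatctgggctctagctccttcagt

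In 36 of the 49 genes the strongest peak of each replicate was centred within 1100 bp of the gene's 5' end. The replicate 2 peak was the nearer of the pair to the 5' end in 26 of these 36. Its centre lay within 100 bp of the 5' end in 16 of them, against 4 for replicate 1. The pair of peaks that Ppp1r3d and Fam217b share is counted for each gene in the 36, the 26 and the 16. The plot of positions shows the pairs.

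**Figure D2:**
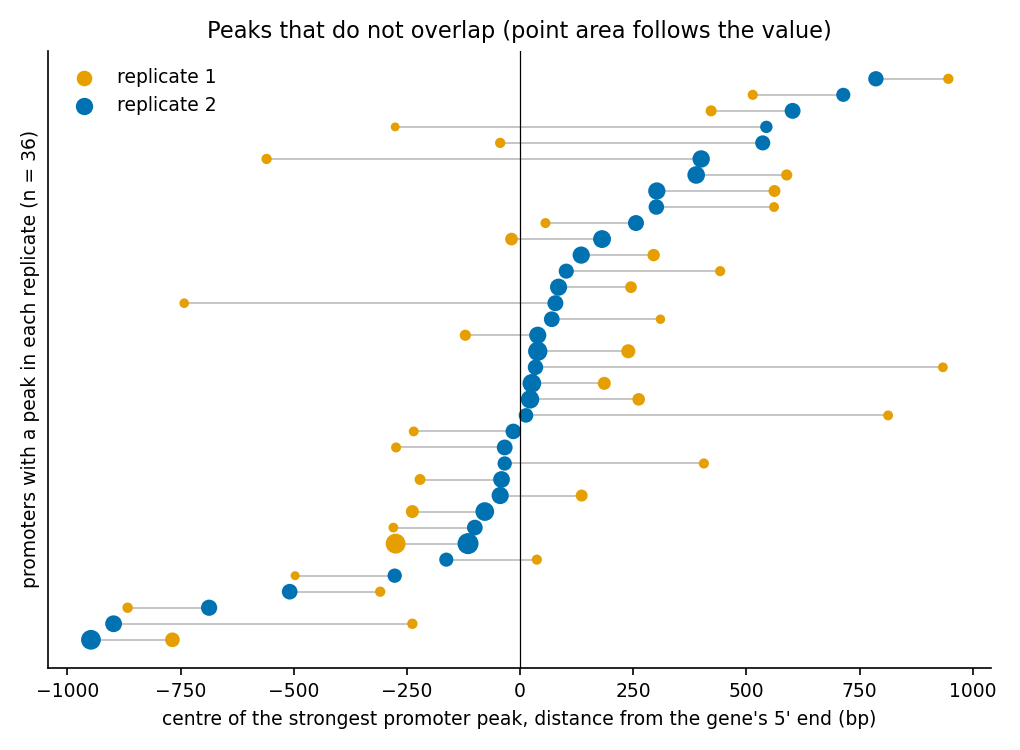
Position of the strongest promoter peak of each replicate relative to the gene's 5' end (horizontal axis, bp, transcription to the right) at 36 promoters with a peak in each replicate that do not overlap. Each gene has 1 row, and Ppp1r3d and Fam217b share a pair of peaks. Point area follows the authors' value in that replicate; replicate 2 is nearer the 5' end in 26 of the 36.

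The share of genes without a shared peak was lower where CpG were more numerous. It was 4.71% (95% exact binomial interval 3.97 to 5.55) at 60 to 79 CpG, 2.37% (1.84 to 3.01) at 80 to 99, 1.20% (0.787 to 1.76) at 100 to 119 and 0.773% (0.311 to 1.59) at 160 or more. These intervals, and the others given here, cover counting error only. Below 60 CpG, 59.8% of 9900 genes had no shared peak. Just inside the limit, at 60 CpG, stood 1700020D05Rik and Cmtm1 with no peak and Cpt1b, the muscle form of carnitine palmitoyltransferase, with a replicate 2 peak of 37. Just outside, at 59 CpG, stood Alox12 with values of 9 and 53 in peaks that did not overlap, Ccdc194 with no peak, and Hoxb1 with a replicate 1 peak of 9.

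**Figure D3:**
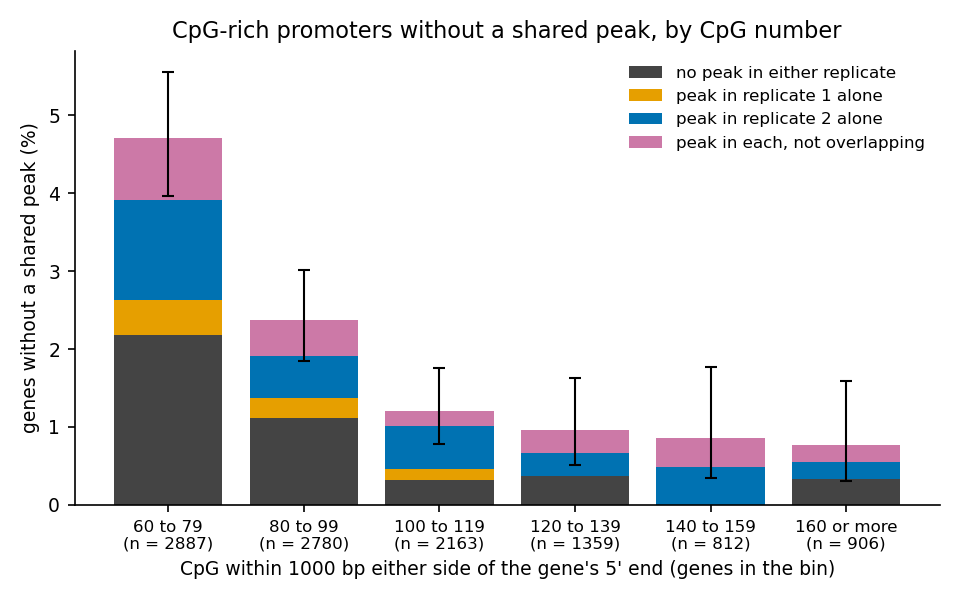
Percentage of CpG-rich autosomal genes without a shared peak (vertical axis) by number of CpG within 1000 bp either side of the 5' end (horizontal axis, number of genes in brackets), split by which replicate had a promoter peak. Bars start at 0 and error bars are 95% exact binomial intervals of the whole bar; the height falls to 0.773% at 160 or more, against 4.71% at 60 to 79 CpG.

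The members with the most CpG show how varied the set is. Dio3, the placental and fetal enzyme that inactivates thyroid hormone, had 229 CpG and peaks of 16 in replicate 1 and 84 in replicate 2, with 90 bp between the nearest peaks. Fcgr3, an Fc receptor of myeloid cells, had 205 CpG and no peak. Rbmxl2, an RNA-binding protein of the testis, had 184 CpG and a replicate 2 peak of 39. Gbx1, a homeobox gene of the hindbrain and spinal cord, had 181 CpG and a replicate 2 peak of 81. Hoxd8 with 174 CpG and the histone gene Hist2h3c1 with 167 had no peak. Hoxd13 had 160 CpG and peaks of 15 and 92. Flt1, a receptor of vascular endothelial growth factor, had 157 CpG and the highest replicate 2 value of the genes with a peak there alone, 92. She had 154 CpG and a replicate 2 peak of 56. Of these genes, Fcgr3 and Hist2h3c1 lay largely in copied sequence, with 8.34% and 19.9% unique words by the measure described next.

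Uniqueness of the sequence separated the promoters without any peak into 2 kinds. Each window of 2001 bases was cut into overlapping words of 36 bases, and the share of words that occur once in the genome was taken. In 70 of the 255 genes under 50% of the words were unique, and all 70 had no peak in either replicate. In 34 of them no word was unique. Among all CpG-rich genes, 123 windows were under 50%, and 56.9% (47.7 to 65.8) of those had no shared peak. At 90% or more unique words 1.62% (1.38 to 1.88) of 10276 genes had no shared peak, and between these limits 3.74% (2.27 to 5.78) of 508 did. The 109 genes with no peak had a median of 4.93% unique words, whereas the medians were 99.6% with a replicate 1 peak alone, 99.8% with a replicate 2 peak alone, 100% with a peak in each and 100% with a shared peak. Within the windows under 50%, the median share of unique words was 0.432% in the 70 genes and 28.7% in the 53 genes that did have a shared peak. Whether reads that match several places were kept is not given in the sources used here, and the part of sequence copies in the missing peaks was not tested.

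**Figure D4:**
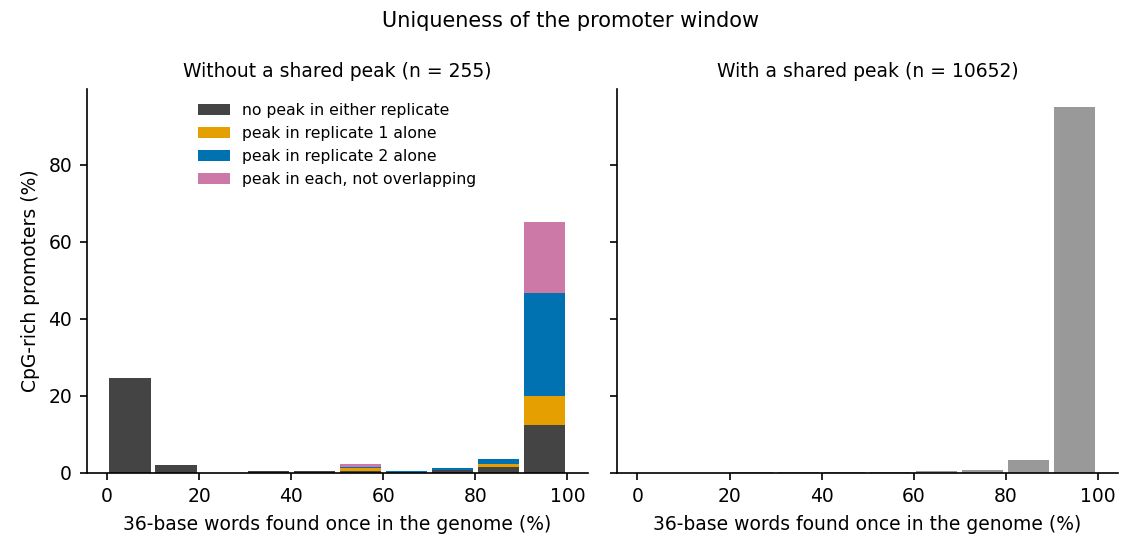
Share of 36-base words of the promoter window that occur once in the genome (horizontal axis, bins of 10 percentage points) for the 255 CpG-rich promoters without a shared peak (left, split by which replicate had a peak) and the 10652 with one (right), as a percentage of each set (vertical axis). The left panel has a second group of promoters near 0, all of them without any peak.

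Many of the copied promoters were neighbours. The set held 24 runs of at least 2 genes with no other protein-coding gene between them, with 78 genes in all, and 46 of the 70 genes with few unique words were in such runs. The longest, of 12 genes on chromosome 4, spanned the interferon gene Ifnz and the predicted genes Gm13290, Gm13289, Gm13272, Gm13276, Gm13277, Gm13278, Gm13275, Gm13279, Gm13285, Gm13287 and Gm13288, with 0 to 9.72% unique words. On chromosome 2, 7 predicted genes (Gm13691 and Gm13693 to Gm13698) each had 64 CpG and no unique word. On chromosome 13, the histone genes Hist1h2bq, Hist1h2ao, Hist1h4m, Hist1h4n, Hist1h2ap and Hist1h2br formed a run of 6. Gm3417, 9030025P20Rik, Gm3448, Gm3435 and Tcte3 formed a run of 5 on chromosome 17, and Fam177a, Srp54b, 1700047I17Rik2 and Srp54c a run of 4 on chromosome 12. None of the genes in these 5 runs had a peak in either replicate. Chromosome 14 had the highest share of CpG-rich genes without a shared peak, 6.45% of 403, and 21 of its 26 such genes had under 50% unique words.

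Histones and predicted genes accounted for much of this kind. Of 60 CpG-rich genes for replication-dependent histones, which package DNA in S phase, 9 had no shared peak and 8 no peak at all, and 7 had under 50% unique words. The remaining 2, Hist1h2aa and Hist1h2ba, encode the testis variants of H2A and H2B, share a promoter region and had 90.3% unique words. Hist1h2aa had no peak and Hist1h2ba a replicate 1 peak of 5. Of 452 CpG-rich genes with predicted or clone-based names 67 (14.8%) were in the set, and 44 of these had under 50% unique words. The set also had fewer genes with a consensus coding sequence (84.7%, against 97.5% with a shared peak), more with a single exon (16.9%, against 3.23%) and more with a single annotated start (41.2%, against 11.97%). Among genes with at least 90% unique words these shares were 94.6% against 97.6%, 9.04% against 2.77% and 36.7% against 11.4%.

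Of the 166 genes with at least 90% unique words, 32 had no peak, 19 a replicate 1 peak alone, 68 a replicate 2 peak alone and 47 a peak in each. The share without a shared peak was 3.48% (2.81 to 4.25) at 60 to 79 CpG and 0.561% (0.182 to 1.305) at 160 or more. Gene lists, drawn up with earlier results of these data known, held all but 124 of the 255 members, 67 of them by a predicted or clone-based name alone, and for each list the share is to be read against the 2.34% of all CpG-rich genes.

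**Figure D5:**
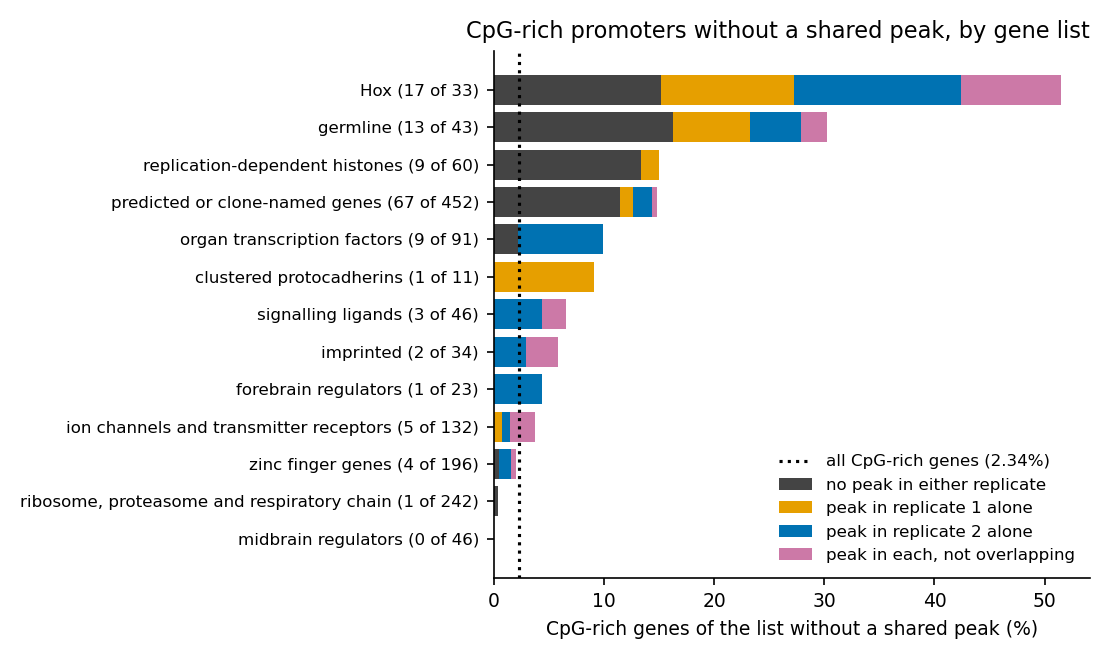
Percentage of the CpG-rich genes of each list without a shared peak (horizontal axis, from 0; numbers of genes in brackets), split by which replicate had a promoter peak. The dotted line marks all CpG-rich genes, 2.34%; the Hox list stands at 51.5% and the midbrain regulators at 0.

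Hox genes, the homeobox factors that set position along the body axis behind the midbrain, had the highest share of the 13 lists. Of 33 CpG-rich Hox genes 17 (51.5%) had no shared peak, all 17 with over 90% unique words. Hoxa6, Hoxc11, Hoxd8, Hoxd11 and Hoxd12 had no peak in either replicate. Hoxa3, Hoxb7, Hoxc9 and Hoxc12 had a replicate 1 peak alone, with values of 11, 14, 17 and 14. Hoxa2, Hoxa9, Hoxa11, Hoxc8 and Hoxd4 had a replicate 2 peak alone, with values of 69, 70, 74, 66 and 79. Thus 10 of the 17 had no replicate 1 peak and 9 no replicate 2 peak. Peaks in each replicate that did not overlap had values of 13 and 57 at Hoxb8, 6 and 81 at Hoxd3, and 15 and 92 at Hoxd13. Those of Hoxd3 were centred 33783 bp (replicate 1) and 28543 bp (replicate 2) after its 5' end, at other annotated starts. All 4 clusters were represented, from Hoxa2 near the front of a cluster to Hoxd13 at the back. The 16 Hox genes with a shared peak had replicate 1 values between 12 at Hoxb9 and 82 at Hoxa7 and replicate 2 values between 54 at Hoxa13 and 123 at Hoxa7 and Hoxa10. The members with a peak had values of 6 to 17 in replicate 1 and 57 to 92 in replicate 2, so the ranges overlapped in each replicate.

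The Hox promoters without a shared peak had other open sites nearby, with counts of shared distal peaks close to those around other CpG-rich genes. They had a median of 10 shared distal peaks (quartiles 7 and 16) within the gene or 50 kb of it. A distal peak lies over 1000 bp from any protein-coding start. The median was 9 (5 and 14) in CpG-rich genes with a shared promoter peak and 8 (5 and 13) in the 166 members in unique sequence, which include the Hox members. Distal peaks of replicate 1, shared or not, had a median of 60 (quartiles 49 and 90) at the Hox members. Genes with a shared promoter peak had 29 (16 and 54). For replicate 2 the medians were 18 and 14. The span searched includes the gene, with a median length of 3505 bp at the Hox members, against 25890 bp. The nearest shared peak of the Hox members lay 1290 to 9889 bp from a start (median 2922 bp). Hoxd11, Hoxd12 and Hoxd13, in a run of 3 neighbours, had 26 shared distal peaks each. The stretches searched around Hox members of a cluster overlap, largely so for these 3, so the same peaks can be counted for several genes. The runs Hoxd8, Hoxd3, Hoxd4 and Gm28230 on chromosome 2 and Hoxa2, Gm28308, Hoxa3 and 5730596B20Rik on chromosome 6 held 4 genes each, some of which share a start region and are not independent.

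Germline genes had 13 of 43 CpG-rich genes (30.2%) without a shared peak. No peak was found at Sycp1 and Sycp2, which encode parts of the synaptonemal complex that joins chromosomes in meiosis, at Tex12, another of its parts, at Mael, which acts in the piRNA pathway that silences transposons, or at Fkbp6, Stk31 and Slc25a31. Slc25a31 encodes the ADP/ATP carrier of sperm mitochondria. Ddx4, the germ cell RNA helicase also called vasa, Mov10l1 and Sohlh2 had replicate 1 peaks alone, with values of 6, 8 and 10. Sycp3 and the testis tubulin gene Tuba3a had replicate 2 peaks alone, with values of 30 and 33. Meiob had values of 36 in replicate 1 and 99 in replicate 2 in peaks 50 bp apart. The other 30 CpG-rich germline genes had shared peaks, with values of 13 to 130 (median 76) in replicate 1 and 35 to 149 (median 126) in replicate 2, against medians of 100 and 140 for all CpG-rich genes with a shared peak. They ran from Dnd1, an RNA-binding protein of germ cells, with 13 and 35, and Dmc1, the recombinase of meiosis, with 13 and 61, to Stag3, a cohesin subunit of meiosis, with 130 and 149. The ranges of germline members with a peak, 6 to 36 in replicate 1 and 30 to 99 in replicate 2, overlapped theirs.

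The E-box stood at a larger share of the germline genes without a shared peak than of those with one. The genes are not replicates, and the list and motifs were chosen with earlier results known, so the difference was not tested. From 250 bases before to 50 after the 5' end, CACGTG occurred at 9 of 13 germline members (69.2%, interval 38.6 to 90.9), against 6 of 30 germline genes with a shared peak (20%, 7.71 to 38.6). The 9 were the printed Sycp1, Slc25a31, Fkbp6, Stk31 and Tex12 along with Mael, Sycp3, Mov10l1 and Meiob. The share was 16.1% in all 255 members, 10.7% in CpG-rich genes with a shared peak and 7.82% in all autosomal promoters. The E2F6 motif TCCCGC occurred at 7 of 13 germline members and 11 of 30 germline genes with a shared peak, shares whose intervals overlap widely (25.1 to 80.8% and 19.9 to 56.1%). Of other motifs, TATAAA (4 of 13, against 2 of 30) and GCGCATG (4 of 13, against 4 of 30) also had larger shares at germline members. So did GGGCGG (10 of 13, against 18 of 30) and AAGATGGC (1 of 13, against 1 of 30). GTTGCC (0 of 13, against 4 of 30), CCGGAAG (2 of 13, against 6 of 30) and CCAAT (5 of 13, against 14 of 30) had smaller shares. For each of these other motifs the intervals of the 2 germline groups overlap. TGACGTCA occurred in neither group. A match of these letters is a description of the sequence and not a bound site.

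Transcription factors of other organs were members at a lower rate, 9 of 91 (9.89%), and 7 of the 9 had a replicate 2 peak alone. Pdx1, the pancreas factor, and Cdx2, the intestine factor, are neighbours on chromosome 5 and had no peak in either replicate. Replicate 2 peaks alone stood at Pitx1 (value 89), a hindlimb factor, Tbx1 (78), a factor of the pharyngeal arches, Nkx1-2 (72), Hand1 (65), a heart factor, Cdx1 (64), Foxi2 (61) and T (56), the mesoderm factor brachyury. No member of this list had a replicate 1 peak. Tbx1 had its replicate 2 peak 1 bp from the 5' end, at the percentile 74.6 of all replicate 2 peaks.

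None of 46 CpG-rich midbrain regulators was without a shared peak, which by counting alone allows a share of up to 6.52%. Forebrain regulators had 1 member of 23, Lhx6, a factor of cortical interneurons, with a replicate 2 peak of 85. Signalling ligands had 3 of 46, namely Bmp8b with a replicate 2 peak of 51, Gdf1 with one of 37 and Wnt10a with values of 11 and 66. Gdf1 was the 1 member at which a shared peak lay at a start annotated by RefSeq, so with RefSeq starts added the set held 254 genes. RefSeq starts were found by symbol for 166 of the 255.

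The imprinted list, of genes expressed from the copy of 1 parent, had 2 members of 34. They were Dio3, described above, and Kcnk9, a potassium channel with a replicate 2 peak of 59. Channels and transmitter receptors had 5 of 132 (3.79%): Kcnk9, the serotonin receptor gene Htr6 with 16 and 85, the GABA-A receptor subunit gene Gabrd with 14 and 62, the somatostatin receptor gene Sstr5 with 10 and 73, and Cacng6 with a replicate 1 peak of 7. Zinc finger genes had 4 of 196 (2.04%): Zfp541 with a replicate 2 peak of 84, Zfp853 with 12 and 56, Zfp296 with a replicate 2 peak of 56, and Zfp433 with no peak and 5.09% unique words. The clustered protocadherins, adhesion proteins of neurons, had 1 of 11, Pcdha8 with a replicate 1 peak of 3, the lowest value of the set. Genes for the ribosome, proteasome and respiratory chain had 1 of 242, Rpl10l, a retrogene copy of a ribosomal protein gene used in the testis, with no peak and 75.6% unique words.

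No list held 124 of the members. Over the whole set, the highest replicate 2 peaks without a replicate 1 peak belonged to Flt1 (92), Pitx1 (89), Irx4 (86), Lhx6 (85) and Zfp541 (84), and Irx4 is an Iroquois homeobox gene. The highest replicate 1 peaks without a replicate 2 peak belonged to Gm10775 (18), Hoxc9 (17), Hoxb7, Hoxc12 and Col8a2 (14 each), and Col8a2 encodes a collagen of the cornea. Among genes in unique sequence with no peak in either replicate, named after their values were seen, were Hsf5, a heat shock factor family member of the testis, Krt18, a keratin of simple epithelia, and Insl3, a hormone of Leydig cells.

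Over the whole set the member promoters had fewer CpG for their base composition than CpG-rich promoters with a shared peak, and at like CpG numbers they were richer in G and C. Median GC content was 55.2% (quartiles 51.8 and 57.9) in the 255 genes and 55.5% (52.2 and 59.1) with a shared peak. The ratio of observed to expected CpG had a median of 0.542 (0.480 and 0.620) in the 255 genes and 0.659 (0.571 and 0.756) with a shared peak. Since CpG number was part of the choice, the narrow range of 60 to 79 CpG is the fairer comparison: there, among genes with at least 90% unique words, the medians of the ratio were 0.476 in 92 members and 0.530 in 2552 genes with a shared peak, and GC content was 54.4% and 51.4%. Repeat-masked sequence took 11.1% of the window in members and 10.9% with a shared peak. Coding sequence took 11.2% of the window in members, against 4.90%, and genes were shorter, with a median of 9331 bp, against 25890 bp.

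Some short motifs were scarcer at the member promoters than at CpG-rich promoters with a shared peak. Each was counted on both strands from 250 before to 50 after the 5' end. The ETS motif CCGGAAG occurred in 4.82% (2.10 to 9.27) of the 166 members in unique sequence, against 17.05% (16.3 to 17.8) of CpG-rich genes with a shared peak and 11.0% of all promoters. The RFX half-site GTTGCC occurred in 6.02% (2.93 to 10.8), against 11.9% (11.3 to 12.5) with a shared peak and 11.96% of all. The GC box GGGCGG occurred in 60.2% (52.4 to 67.7), against 68.8% (67.9 to 69.7) and 43.7% of all. The GC box can overlap the E2F6 motif. The members and the genes with a shared peak were not matched for CpG number, with medians of 76.5 and 98. The ETS motif and the GC box each contain a CpG, and the part of CpG number in these shares was not tested. TATAAA was more frequent at members, 13.3% (8.50 to 19.4), against 6.19% (5.74 to 6.66) with a shared peak and 12.7% of all promoters. CCAAT was found at similar shares, 41.6% (34.0 to 49.5), against 37.4% (36.5 to 38.3) and 38.6% of all. The NRF1 half-site and the motifs of YY1 and CREB were too rare at these members to set apart. Each interval held the share of the genes with a shared peak. NRF1 (GCGCATG) had 4.22% (1.71 to 8.50), against 7.39% with a shared peak. YY1 (AAGATGGC) had 1.81% (0.374 to 5.19), against 4.19%. CREB (TGACGTCA) had 3.01% (0.985 to 6.89), against 3.60%.

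Away from the promoter, members in unique sequence had counts of shared distal peaks close to those of CpG-rich genes with a shared peak. The span searched includes the gene, with a median length of 9834.5 bp in these members and 25890 bp with a shared peak. These 166 genes had a median of 8 shared distal peaks (quartiles 5 and 13), against 9 (5 and 14) in genes with a shared promoter peak. Their nearest shared peak lay at a median of 3892 bp from a start and within 2000 bp in 41 genes, and none had it beyond 50 kb. The 89 genes with fewer unique words had a median of 2 shared distal peaks (quartiles 0 and 7), and 32 of them had none within 50 kb of a start. The members with the most shared distal peaks were Gm37013 and Gm37388, long gene models with 38 each, BC107364 with 35, Abcc8 and Fcgr3 with 29 each, Trpv4 with 28, and Arhgap8, Hoxd11, Hoxd12 and Hoxd13 with 26 each. Gm37013 and Gm37388 cover largely the same stretch of chromosome 18, which also holds Pcdha8, so the same peaks are counted for both. Trpv4, a cation channel, had peaks of 8 in replicate 1 and 56 in replicate 2 at different starts, and Arhgap8 8 and 40.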

How the data were processed

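DNase-seq peaks and hotspots of midbrain from mouse embryos were analysed in 1 group of 2 replicates, numbered as in the labels. Per the labels the assembly is mm10, and per the deposited notes the lists were made from each replicate's filtered alignments. Aligner, caller, read length and filters: not given in the sources used here. The deposited peak lists carry a whole-number signal value of at most 150, and the deposited hotspot lists a −log10 q value capped at 100. How the authors scaled the signal value is not stated, so it was ranked within a replicate only. The read depth is unknown.

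Genes were autosomal protein-coding genes of GENCODE mouse release M21. Sequence was RefSeq's GRCm38.p6. CpG were counted in the 2001 bases centred on the gene's 5' end, and peaks were sought in the 1000 bp either side of every annotated start. Words of 36 bases were counted over the genome on both strands, and the limits of 50% and 90% unique words were set after the data were seen. Motifs were exact matches from 250 before to 50 after the 5' end. Shares carry 95% exact binomial (Clopper-Pearson) intervals, and the upper limit of a share of 0 is 3 counts of its total. No test across samples was possible with 1 group. The members, gene lists and motifs were chosen with earlier results of these data known. Named genes were up to 5 of each list and 10 overall with the most CpG, those with the highest peaks in each form, the 10 with the most distal peaks, those at the CpG limit and those in the 5 longest runs; 1 of these genes is not reported here. The other Hox, germline, organ factor and histone members were named after their values were seen. The alternatives tried were other windows, overlaps, CpG limits, starts, stricter peaks, hotspots, single replicates and unique sequence alone. The overlap, CpG and word counts were tested on simulated data. The tools were numba 0.67.0, scipy 1.17.1, matplotlib 3.10.9, numpy 2.4.6 and pandas 2.3.3 under Python 3.11.15.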

Additional observations from a re-analysis of the deposited data

How the results depend on the processing

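The 255 genes without a shared peak became 353 with an overlap of at least 75 bp, 355 with windows of 500 bp, 310 at the gene's 5' end alone, 302 with the stronger peaks of each replicate, 218 with hotspots and 209 with windows of 2000 bp, all within 1.5 times. Counting a peak in each replicate whether or not it overlapped left 206, an alternative chosen after seeing the data. With single replicates the count was 132 (without replicate 1) to 183 (without replicate 2), both for genes without a shared peak and for the 109 without any. With 80 CpG the counts were 119 and 46, with 100 CpG 53 and 15, and in windows with at least 90% unique words, chosen after seeing the data, 166 and 32. Among the lists, the counts without replicate 1 and without replicate 2 were 9 and 10 for the 17 Hox genes, 2 and 9 for the 9 organ factors, 1 and 0 for the 1 protocadherin and 1 and 3 for the 4 zinc finger genes. Windows of 500 bp gave 17 organ factors, and unique windows alone gave 0 protocadherins. The median of 7 shared distal peaks became 10 without replicate 1 and 19 without replicate 2. Median GC content of 55.2% became 60.3% and the median share of unique words of 97.4% became 100% from 250 bases before to 50 after the 5' end, and 98.9% with words of 50 bases, a length chosen after seeing the data. The cause of these shifts was not tested beyond what each setting removes. No paired analysis was possible because there is 1 group. Depth is unknown, so a missing peak says that none was called, not that the promoter was closed.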
